A study of Schizosaccharomyces pombe with 12 samples.

Results

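The difference between the temperature responses of mis4-367 and mis4+ fission yeast was measured as a contrast of 4 groups: the change of each gene from 25 °C to 37 °C in mis4-367 minus its change in mis4+. All 12 arrays entered it, 3 per group, and it was computed for 2896 genes of Schizosaccharomyces pombe, each read by its brightest probe set, out of 10928 probe sets on the arrays. mis4-367 is a thermosensitive allele, permissive at 25 °C, and mis4+ is the wild-type allele. All 4 groups were h- cells with the plasmid ura4+-pREP2-res1, which makes the C-terminal fragment of Res1 when thiamine is absent from EMM2 medium. The fragment titrates Cdc10, so every culture, the mis4+ control included, was in a G1 arrest that it imposed. RNA was taken before the shift, in arrested cells at 25 °C, and after 2 h at 37 °C, from 3 independent inoculates of each allele. A gene with a positive difference either rose further or fell less in mis4-367, and a negative difference means the opposite. The question of the contrast is whether the response to 37 °C depends on the mis4 allele.

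Mis4, with its partner Ssl3, loads cohesin onto chromosomes. Cohesin is the ring complex, built on Psm1, Psm3 and the kleisin Rad21, that holds sister chromatids together and also shapes chromosomes outside S phase and mitosis. A shift to 37 °C is the restrictive condition for many fission yeast mutants and also a heat stress, to which cells respond through heat shock factor and the Sty1 stress kinase, so the mutant and the stress act at the same time and wild-type cells are needed for comparison.

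Median array intensities lay between 394.2 and 433.1, and arrays give no read depth. Levels below are log2 intensities of the deposited values, and responses are differences of them. A level of 3.42, the 95th percentile of the probe sets for another yeast, served as the background. Each array was set against the mean of the remaining arrays of its own group: the SD of the differences over genes was 0.202 for replicate 3 of mis4+ at 37 °C and 0.0654 to 0.134 for the rest. The median gene of that replicate lay 0.10 above its group. Where leaving it out moved the difference of a named gene by over 1.5 times, the value without it is given where that difference is described.

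The temperature response was broad in both strains and of similar size per gene. In mis4+, 968 genes rose (33.4% of those tested) and 633 fell (21.9%), by limma with Benjamini-Hochberg adjustment. In mis4-367, 966 rose (33.4%) and 667 fell (23%). When the genes were quantile-normalized among themselves the split was 847 risen and 834 fallen in mis4+ and 828 and 837 in mis4-367, so the excess of risen genes depended on the scaling. A total of 1350 genes passed in both strains, 84.3% of those called in mis4+ and 82.7% of those called in mis4-367, and 0 of them moved in opposite directions. Across the 2896 genes, which are not independent replicates, the responses had a Pearson correlation of 0.959 and a Spearman correlation of 0.931. The slope of the mis4-367 response on the mis4+ response was 1.01, and that of mis4+ on mis4-367 was 0.909.

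Most of the genes with the largest responses moved by similar amounts in either strain, while mel1, tms1 and mfm1, described further on, differed more. The gene gut2, for a mitochondrial glycerol-3-phosphate dehydrogenase, read 11.52, 11.43 and 11.49 in mis4+ at 25 °C and 8.70, 8.63 and 8.68 at 37 °C. In mis4-367 it read 11.15, 11.22 and 11.36 at 25 °C and 8.44, 8.33 and 8.56 at 37 °C. All arrays at 37 °C lay far below all arrays at 25 °C, and the responses were -2.81 in mis4+ and -2.80 in mis4-367. The invertase gene inv1 fell by 2.47 in mis4+ and by 2.39 in mis4-367, and pyp2, for a phosphatase of the Sty1 kinase, fell by 2.17 in mis4+ and fell by 2.06 in mis4-367. The largest rise was that of say1, by 3.40 in mis4+ and 3.76 in mis4-367, with some mis4-367 arrays at 25 °C below the background. The kinase gene ppk31 rose by 2.82 in mis4+ and, with all mis4-367 arrays at 25 °C below the background and raised to it, by 2.57 in mis4-367. The gene hop1, for a meiotic chromosome axis protein, rose by 2.62 and 2.52, and spk1, the kinase of the pheromone pathway, by 2.55 and 2.43. Of the 85 genes that changed at least 2-fold in mis4+, all 85 were also called in mis4-367 with the same sign.

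**Figure D1:**
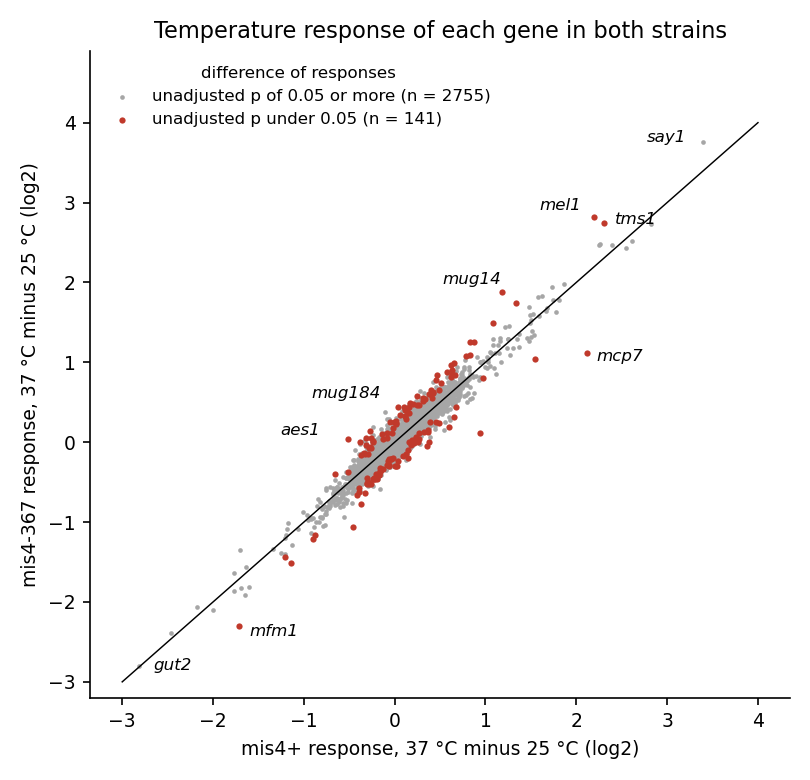
Each point is 1 of 2896 genes, with its mean response to 37 °C in mis4+ on the horizontal axis and in mis4-367 on the vertical axis, both as log2 differences over 3 arrays per group. The line marks equal responses, red points are the 141 genes with an unadjusted p under 0.05 for the difference, and named genes such as mel1, tms1 and mcp7 are described in the text.

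The test of the difference itself called 0 of 2896 genes (0%) at an adjusted p under 0.05 in limma, where the smallest adjusted p was 0.125. At an unadjusted p under 0.05 there were 141 genes (4.87%), of which 72 (2.49%) had the higher response in mis4-367 and 69 (2.38%) the lower. There were 26 genes at an unadjusted p under 0.01 and 4 under 0.001. The median difference was -0.01, with quartiles of -0.08 and 0.06, against a median standard error of 0.09 per gene. The 95% interval of the difference lay within 1.5-fold in either direction for 2793 genes (96.4%), so for these a larger dependence on the allele lies outside the interval. For the other 103 genes the interval reached past 1.5-fold, because it was wide or because the estimate was large, as for tms1. The point estimate exceeded 1.5-fold for 5 genes, mug14 and mel1 upward and mcp7, mug8 and frp1 downward, and 0 genes had an interval wholly beyond it. The p-values measure the spread between 3 inoculates per group.

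Genes that passed in one strain alone do not by that differ between strains. There were 251 genes called only in mis4+, of which 27 had an unadjusted p under 0.05 for the difference, and 283 called only in mis4-367, of which 32 did. The remaining genes below that p were 74 called in both strains and 8 called in neither. Compared at one temperature, mis4-367 and mis4+ differed in 208 genes at 37 °C (7.18%) and in 18 genes at 25 °C (0.622%). Of the 208 genes, 199 had a strain difference of the same sign at 25 °C, and 195 had an interval of the difference of responses inside 1.5-fold. An unadjusted p under 0.05 for the difference was seen in 59 of the 208, a count that shares the 37 °C arrays with the call that chose them. The larger number of strain differences at 37 °C is therefore not a count of genes whose response was shown to depend on the allele.

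The smallest adjusted p of 0.125 was shared by 4 genes, and the next limma values were 0.721 for pof5 and 0.732 for sid1. All 4 had a positive difference, and in each the 3 same-numbered differences of mis4-367 lay above the 3 of mis4+, a separation in that direction seen in 145 genes (5.01%). None of the 4 passed the threshold.

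The gene mug184 (SPBC1773.09C, chromosome II), named for being raised in meiosis, was flat in mis4+ and rose in mis4-367. Its levels were 5.81, 5.76 and 5.74 in mis4+ at 25 °C and 5.79, 5.80 and 5.82 at 37 °C. In mis4-367 they were 5.73, 5.62 and 5.73 at 25 °C and 6.06, 6.19 and 6.13 at 37 °C. The mis4-367 arrays at 37 °C were above all 9 others, and the other groups lay within a narrow band. The response was 0.03 in mis4+ and 0.44 in mis4-367, a rise of 1.35-fold, with a difference of 0.41 ± 0.07 (SE, 3 arrays per group; limma unadjusted p = 6.29e-05).

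The gene mel1 (SPAC869.07C, chromosome I), for an alpha-galactosidase that releases galactose from melibiose, rose in both strains from different starting levels. At 25 °C it read 4.97, 4.98 and 4.81 in mis4+ and 3.67, 3.96 and 3.68 in mis4-367. At 37 °C it read 7.11, 7.09 and 7.14 in mis4+ and 6.47, 6.67 and 6.61 in mis4-367. At both temperatures every mis4-367 array was below every mis4+ array, and the gap was smaller at 37 °C. The rise was 4.57-fold in mis4+ and 7.03-fold in mis4-367, and the difference of 0.62 ± 0.11 (limma unadjusted p = 0.000128) went with a strain gap of -1.15 at 25 °C and -0.53 at 37 °C. With a pseudocount of 16 intensity units the difference was 0.18, since its 25 °C levels in mis4-367 were close to the background.

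The gene tms1 (SPBC1773.05C, chromosome II), for a predicted hexitol dehydrogenase, showed the same order of levels at 25 °C and none at 37 °C. At 25 °C the arrays read 8.01, 8.09 and 8.12 in mis4+ and 7.54, 7.54 and 7.68 in mis4-367. At 37 °C they read 10.40, 10.32 and 10.41 in mis4+ and 10.36, 10.25 and 10.42 in mis4-367. The strains did not overlap at 25 °C and overlapped at 37 °C. The rise was 4.94-fold in mis4+ and 6.73-fold in mis4-367, with a difference of 0.45 ± 0.08 (limma unadjusted p = 0.000156).

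The gene aes1 (SPBPB21E7.07, chromosome II), named as an enhancer of silencing by antisense RNA, fell in mis4+ and gave no call in mis4-367. Its levels were 8.89, 9.11 and 9.13 in mis4+ at 25 °C and 8.59, 8.59 and 8.41 at 37 °C. In mis4-367 they were 9.17, 9.02 and 9.02 at 25 °C and 9.07, 9.11 and 9.14 at 37 °C. The mis4+ arrays at 37 °C were the low group, and the other 3 groups overlapped. The fall in mis4+ was by 0.51 (adjusted p = 8.98e-05 in limma), the response in mis4-367 was 0.04, and the difference was 0.55 ± 0.10 (limma unadjusted p = 0.000172).

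**Figure D2:**
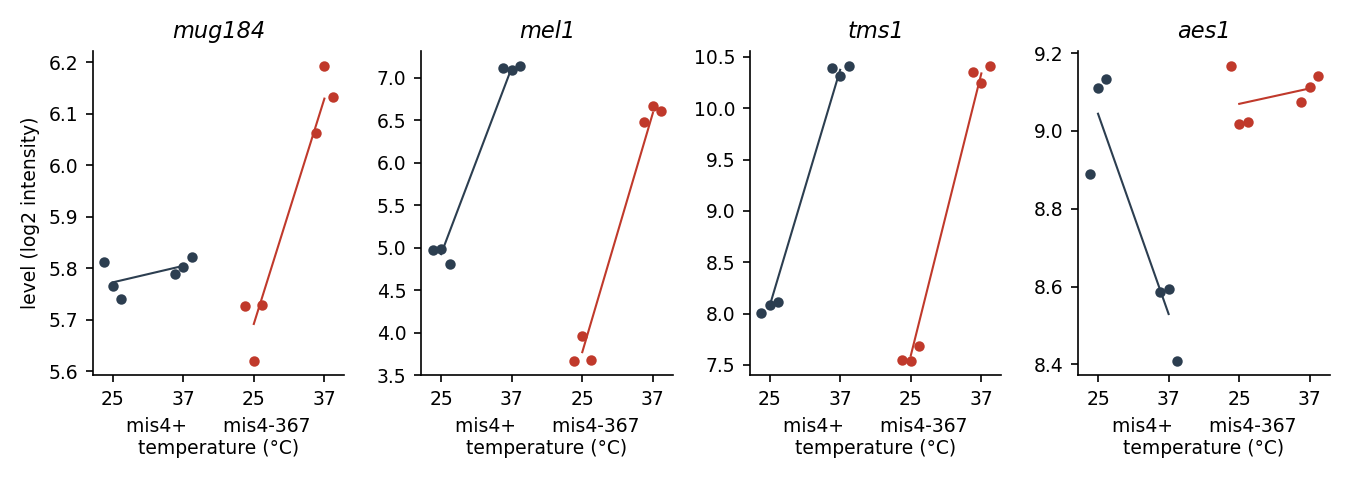
Levels of mug184, mel1, tms1 and aes1 on each array as log2 intensity (points, 3 arrays per group, each panel with its own scale), with lines joining the group means at 25 °C and 37 °C for mis4+ (dark) and mis4-367 (red). The mug184 line rises in mis4-367 and is flat in mis4+, the mel1 and tms1 lines start lower in mis4-367, and the aes1 line falls in mis4+.

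The largest positive differences beyond these 4 were values that did not pass the adjusted threshold (adjusted p of 0.824 in limma for every other gene in the plot of intervals). The gene mug14 had the highest of all, 0.70 ± 0.21, from a rise of 1.18 in mis4+ and 1.88 in mis4-367. It read 7.07, 6.51 and 6.77 in mis4+ and 6.13, 6.35 and 6.77 in mis4-367 at 25 °C, which overlap, and 8.02, 7.96 and 7.90 against 8.22, 8.32 and 8.35 at 37 °C, which do not. Both subunits of the enzyme that thiolates cytoplasmic tRNA had similar values, with ctu1 at 0.38 ± 0.14 and ctu2 at 0.43 ± 0.12. Both rose in both strains, ctu1 by 0.46 and 0.85 and ctu2 by 0.83 and 1.25. The ctu1 difference was 0.24 when replicate 3 of mis4+ at 37 °C was left out. The hexose transporter gene ght6 stood at 0.41 ± 0.16, the RNA nc-pho1 at 0.41 ± 0.13 and rrg9 at 0.38 ± 0.13, and all of them rose in both strains. The ribosome assembly gene rrs1 (0.41 ± 0.17) and bag102, for a BAG-domain partner of Hsp70 (0.38 ± 0.14), had lower means at 37 °C in mis4+ that were widened by replicate 3. Without that array they were 0.22 and 0.23.

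The largest negative differences were led by meiotic genes of low level. The gene mcp7, whose product works with that of meu13 in meiotic recombination, rose by 2.12 in mis4+ and by 1.11 in mis4-367, a difference of -1.0 ± 0.39. Its levels at 37 °C were 6.74, 5.79 and 6.56 in mis4+ and 5.13, 5.36 and 5.99 in mis4-367. The highest mis4-367 array lay above the lowest mis4+ array, so the groups overlapped. The partner gene meu13 rose by 1.55 in mis4+ and 1.04 in mis4-367, a difference of -0.51 ± 0.17, with some arrays at 25 °C below the background. The values of mug8 (-0.82 ± 0.28), of arp1, for the actin-related protein of dynactin (-0.41 ± 0.18), and of mcp6, which acts in the nuclear movement of meiotic prophase (-0.34 ± 0.15), came from genes whose arrays at 25 °C in mis4+ were all below the background. With levels raised to the background they were -0.76, -0.33 and -0.16.

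Among genes well above the background, mfm1, for a precursor of the M-factor pheromone, had a difference of -0.58 ± 0.18. It read 11.36, 10.91 and 11.06 in mis4+ and 10.64, 10.80 and 10.96 in mis4-367 at 25 °C. At 37 °C it read 9.41, 9.16 and 9.60 in mis4+ and 8.46, 8.58 and 8.46 in mis4-367. The strains overlapped at 25 °C and were apart at 37 °C, after a 3.29-fold fall in mis4+ and a 4.93-fold fall in mis4-367. The other M-factor gene measured, mfm3, is read by a probe set shared between sequences. It fell by 0.73 and 0.82, a difference of -0.10 ± 0.11, which was -0.03 without replicate 3 of mis4+ at 37 °C. The ferric reductase gene frp1 fell by 0.46 in mis4+ and by 1.06 in mis4-367, a difference of -0.60 ± 0.19. The Hsp70 gene ssa1 fell by 0.37 and by 0.77 (-0.40 ± 0.16), and the amino acid permease gene isp5 fell by 1.14 and by 1.51 (-0.37 ± 0.11). The kinetochore gene spc7 rose by 0.38 in mis4+ and gave no call in mis4-367 (adjusted p = 0.987 in limma), a difference of -0.38 ± 0.13, and leaving out mis4+ replicate 3 at 37 °C gave -0.25. The uracil-responsive gene urg1 stood at -0.34 ± 0.15, or -0.21 without that array, with no call in either strain.

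**Figure D3:**
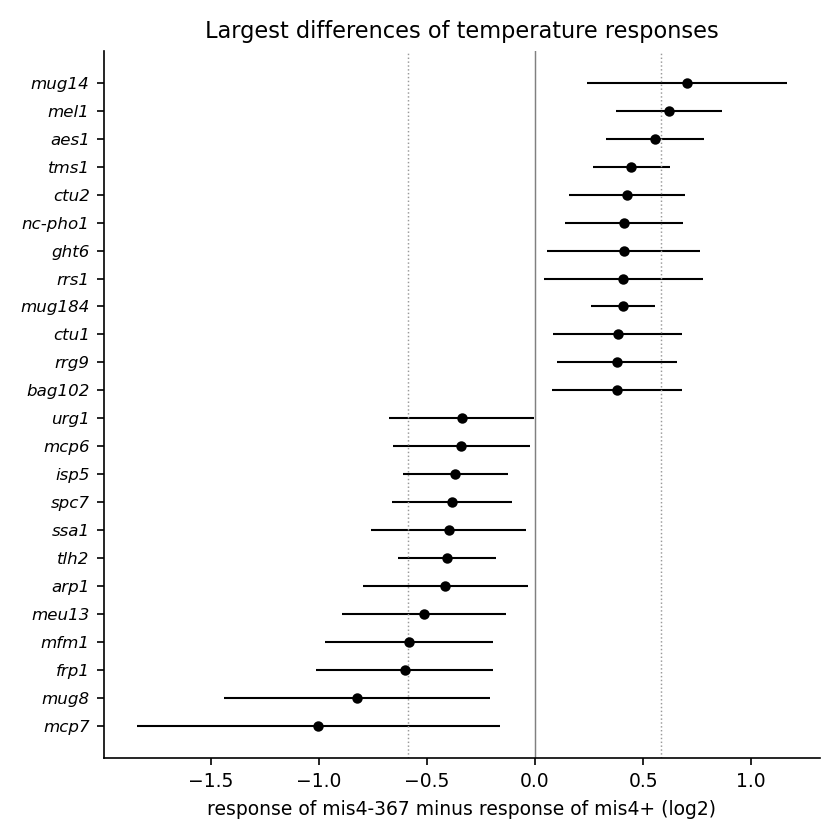
The 12 largest positive and 12 largest negative differences of responses (log2) among genes above the background in at least 1 group and with an unadjusted p under 0.05, each with its 95% interval from limma. The dotted lines mark 1.5-fold, and every interval reaches inside them.

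The whole response was compared between strains as 1 slope per culture, that of its 37 °C minus 25 °C differences on the mean differences of all cultures. The slopes were 0.977, 0.964 and 0.978 in mis4+ and 1.01, 1.04 and 1.03 in mis4-367. The mis4-367 slopes lay above the mis4+ slopes without overlap, and the difference of the means was 0.0544. An exact two-sided permutation test gave p = 0.1, the smallest that 3 against 3 can give. The slopes pair arrays by their replicate number, which the data did not bear out as a pairing. Of the 1350 genes called in both strains, 783 (58.0%) had the larger response in mis4-367, and of the 74 among them with an unadjusted p under 0.05 for the difference, 61 did. The share of 58.0% was 48.9% without replicate 1 and 49.8% without replicate 2 of mis4+ at 37 °C, and 61.5% without replicate 3, so its side of the midpoint depended on single arrays. The 61 of 74 also moved, to 58 of 85, 74 of 120 and 76 of 96 without these 3 replicates in turn. It was 103 of 117 without replicate 1 of mis4-367 at 37 °C.

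Where the response was large, the difference was a small part of it. In 1760 genes whose mean response over both strains was under 0.25, the median size of the difference was 0.07, and in 73 genes with a response from 1 to 2 it was 0.14. The median standard error went from 0.09 to 0.13 between these classes, and the median level from 8.91 to 7.38. In the 14 genes with a response over 2 the median size of the difference was 0.12, which was 4.79% of the median size of their response. An unadjusted p under 0.05 was seen in 61 of the 1760, 11 of the 73 and 3 of the 14, against 4.87% of all genes. In the classes between, it was seen in 42 of 719 genes (response 0.25 to 0.5) and 24 of 330 (0.5 to 1). The share of genes below that p therefore rose with the size of the response.

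Cohesin and its loader gave small differences, and 1 of their genes had an unadjusted p under 0.05. The probe set of mis4 itself read 7.99, 8.04 and 8.12 in mis4+ and 7.98, 7.93 and 7.86 in mis4-367 at 25 °C. At 37 °C it read 8.40, 8.24 and 8.33 in mis4+ and 8.15, 8.21 and 8.40 in mis4-367. The strains lay apart by a small gap at 25 °C and overlapped at 37 °C, and the gene rose by 0.27 and by 0.33. Its difference of 0.06 ± 0.10 had an interval from -0.16 to 0.27, and as mis4-367 is an allele and not a deletion, its RNA level is no check of the labels. The loader partner gene ssl3 had a difference of 0.01 ± 0.11, rad21 0.08 ± 0.06, psm3 -0.12 ± 0.09 and psc3, for a cohesin subunit, 0.07 ± 0.09. With replicate 3 of mis4+ at 37 °C left out, ssl3 stood at 0.11 and psc3 at 0.05. The gene psm1 fell by 0.30 in mis4-367 and gave 0.02 in mis4+, a difference of -0.32 ± 0.14 (limma unadjusted p = 0.0399), which was -0.17 without the same array. It was the 1 gene of 16 of the cohesin list with an unadjusted p under 0.05 (6.25%, against 4.87% of all genes). Without both arrays numbered 3 of mis4+, 0 of the 16 were below that p. Of 14 genes of condensin and the Smc5-Smc6 complex, 0 were.

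Of the genes tied to the arrest, res1 read 10.72, 10.74 and 10.79 in mis4+ at 25 °C and 10.26, 10.47 and 10.15 at 37 °C. In mis4-367 it read 10.87, 10.90 and 10.96 at 25 °C and 10.47, 10.82 and 10.77 at 37 °C. At 25 °C the mis4-367 arrays were the higher ones, and at 37 °C the strains met at 10.47. It fell by 0.46 in mis4+, gave -0.22 in mis4-367 without a call, and its difference was 0.24 ± 0.13 with an interval from -0.05 to 0.52. Its probe set may read the plasmid fragment as well as the chromosomal gene, which cannot be told apart here. The gene cdc10 had a difference of 0.15 ± 0.10, or 0.06 when mis4+ replicate 3 at 37 °C was left out. Among 29 measured targets of the Cdc10 complex 0 had an unadjusted p under 0.05, with a median of -0.02, and the smallest p was that of cdt2, an adaptor of DNA replication control (-0.15 ± 0.07). Of 11 histone genes, hta2 was below it (-0.27 ± 0.11), and when the same array was left out it stood at -0.17 and 0 were. Of 56 genes of mitosis and septation, 3 were below the unadjusted p of 0.05 (5.36%, against 4.87% of all genes). They were sid1, a kinase of the septation network (0.35 ± 0.09), slp1, which activates APC/C in anaphase (-0.23 ± 0.09), and the cyclin gene cdc13 (-0.23 ± 0.10). The median of that list was -0.01, as was that of all genes, and the part of cell cycle position in the differences of single genes was not tested.

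The heat shock genes showed the response to 37 °C in both strains. Of 15 measured, 11 rose and 2 fell in mis4+, and the same numbers did in mis4-367, where 33.4% of all genes rose in either strain and 21.9% and 23% fell, with median responses of 0.23 and 0.21. Their median difference was -0.01. The small heat shock gene hsp16 read 11.88, 11.85 and 11.87 in mis4+ and 11.59, 11.61 and 11.74 in mis4-367 at 25 °C, and 12.66, 12.74 and 12.69 against 12.67, 12.75 and 12.80 at 37 °C. The strains were apart at 25 °C and overlapped at 37 °C, and the rise was by 0.83 in mis4+ and 1.10 in mis4-367, a difference of 0.27 ± 0.07 (limma unadjusted p = 0.00297). The Hsp40 gene psi1 rose less in mis4-367, by 0.25 against 0.45, with a difference of -0.20 ± 0.06. With ssa1, these were the 3 of 15 below the unadjusted p of 0.05, which 4.87% of all genes were, 1 positive and 2 negative.

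In the other stress and protein folding lists, 4 of 48 core stress genes (8.33%, against 4.87% of all genes) had an unadjusted p under 0.05, 2 in each direction, with tms1 above and the vacuolar proteases isp6 (-0.24 ± 0.10) and psp3 (-0.15 ± 0.07) below zero. Leaving out mis4+ replicate 3 at 37 °C gave 3 of 48 (6.25%) and -0.15 for isp6. The fourth of the core stress genes was the thioredoxin gene trx2 (0.21 ± 0.08), which fell by 0.34 in mis4+ and gave -0.13 in mis4-367. Of 34 genes of mitochondrial import, 16 were above zero (47.1%, against 45.1% of all genes). An unadjusted p under 0.05 was seen in 3 of the 34 (8.82%, against 4.87% of all genes). Of these, tim9 (0.34 ± 0.12) and tim13 (0.24 ± 0.09), for small chaperones of the intermembrane space, were positive. The gene sam50, for the outer membrane insertase (-0.20 ± 0.09), was negative. Another small chaperone gene, tim10, had 0.33 ± 0.17, or 0.17 without that array. With both arrays numbered 3 of mis4+ left out, 1 core stress gene and 1 import gene were below that p. Of 33 genes of nutrient and stress signalling, urg1 and git5, for the G-protein beta subunit of glucose signalling (-0.31 ± 0.13), were below that p. They made up 6.06% of the list, against 4.87% of all genes. Above zero were 8 of 33 (24.2%), against 45.1% of all genes. Without mis4+ replicate 3 at 37 °C git5 stood at -0.21 and 1 of the 33 was below that p, and without both arrays numbered 3 of mis4+ 0 were.

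Genes of sexual differentiation had medians below zero. Of 46 mating genes, 4 (8.7%, against 4.87% of all genes) had an unadjusted p under 0.05. All 4 were negative: mfm1, isp5, mam4, for the methyltransferase of M-factor (-0.27 ± 0.09), and byr2, for the first kinase of the pheromone cascade (-0.21 ± 0.07). The median was -0.07, against -0.01 for all genes, and 13 of 46 (28.3%) were above zero, against 45.1% of all genes. Without both arrays numbered 3 of mis4+ the mating median was -0.01, against 0.02 for all genes. With array weights it was -0.01, against 0.01 for all genes. The regulator ste11 had -0.21 ± 0.18, or -0.11 without mis4+ replicate 3 at 37 °C, with no call in either strain. Of 74 meiotic genes, 47 rose and 5 fell in mis4+ and 40 rose and 6 fell in mis4-367. Of all genes, 33.4% rose in either strain, and 21.9% fell in mis4+ and 23% in mis4-367. The median difference of the meiotic genes was -0.06. Below the unadjusted p were 7 of the 74 (9.46%, against 4.87% of all genes). Of these 7, 5 were negative, among them mcp7, meu13 and mok12, for an alpha-glucan synthase of spores (-0.23 ± 0.08), and mcp4 was positive (0.34 ± 0.12). With that array left out, 3 of the 74 were below that p (4.05%, against 5.7% of all genes). The list had a median level of 4.55 against 8.66 for all genes, and a median standard error of 0.13 against 0.09.

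Iron genes had the lowest median of the lists, at -0.09, with 4 of 25 (16%) above zero, against 45.1% of all genes. Below the unadjusted p were 3 genes (12%, against 4.87% of all genes), all negative. They were frp1, php4, for a regulator of iron use (-0.19 ± 0.08), and sib1, for ferrichrome synthesis (-0.18 ± 0.08). Only sib1 rose in both strains, by 0.98 and 0.80. With mis4+ replicate 3 at 37 °C left out, their median was -0.04, sib1 stood at -0.12 and 1 gene was below that p, and without both arrays numbered 3 of mis4+ there were 0. The siderophore transporter gene str3 had -0.43 ± 0.33, an interval from -1.15 to 0.30.

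Growth genes gave narrow results. Among 123 ribosomal protein genes, 0 had an unadjusted p under 0.05, the median was 0.01 and every interval lay inside 1.5-fold; the smallest p was that of rpl1603 (0.24 ± 0.11), which stood at 0.12 without mis4+ replicate 3 at 37 °C. Of 50 ribosome biogenesis genes, 4 did (8%, against 4.87% of all genes). All 4 were positive: rrs1, spb1 (0.28 ± 0.11), utp23 (0.21 ± 0.07) and noc3 (0.14 ± 0.06). The genes noc3 and utp23 fell in mis4+, by 0.51 and 0.28, and gave -0.37, a call, and -0.08, no call, in mis4-367. The median of the list was 0.03, with 35 of 50 (70%) above zero, against 45.1% of all genes. In the SUMO and ubiquitin list of 75, the SUMO gene pmt3 (0.20 ± 0.08) and the SUMO-activating enzyme gene uba2 (0.22 ± 0.08) were positive. The F-box gene pof5 (-0.31 ± 0.07) and the anaphase-promoting complex gene apc2 (-0.17 ± 0.06) were negative. The pof5 levels were 8.93, 8.93 and 8.91 in mis4+ and 8.90, 8.85 and 8.89 in mis4-367 at 25 °C, and 8.90, 8.87 and 9.04 against 8.65, 8.56 and 8.54 at 37 °C. The mis4-367 arrays at 37 °C were below all the others.

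In the other lists the counts below the unadjusted p began at 0 of 31 for the proteasome, 0 of 14 for thiamine and 0 of 11 for copper genes. The highest were 3 of 36 for the cell wall (8.33%) and 4 of 106 for mitochondrial ribosomes and respiration (3.77%), against 4.87% of all genes. The mitochondrial genes were ppr5 (-0.22 ± 0.08), mrps28 (0.21 ± 0.09), sdh1 (-0.17 ± 0.08) and atp2 (-0.16 ± 0.07). Without replicate 3 of mis4+ at 37 °C atp2 stood at -0.10. The 3 cell wall genes were mok12, exg1, for a glucanase (-0.21 ± 0.09), and eng2, for another glucanase (0.14 ± 0.06). The list of heterochromatin and telomere genes had 1 of 42, the deacetylase gene sir2 (-0.16 ± 0.06), and its median was 0.03. That count was 4 (9.52%, against 5.7% of all genes) when replicate 3 of mis4+ at 37 °C was left out. It was 5 without both arrays numbered 3 of mis4+ (11.9%, against 4.73% of all genes). With array weights it was 15 (35.7%, against 16.6% of all genes). In this list 18 genes rose and 3 fell in mis4+, and 22 rose and 2 fell in mis4-367. Of all genes, 33.4% rose in either strain, and 21.9% fell in mis4+ and 23% in mis4-367.

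**Figure D4:**
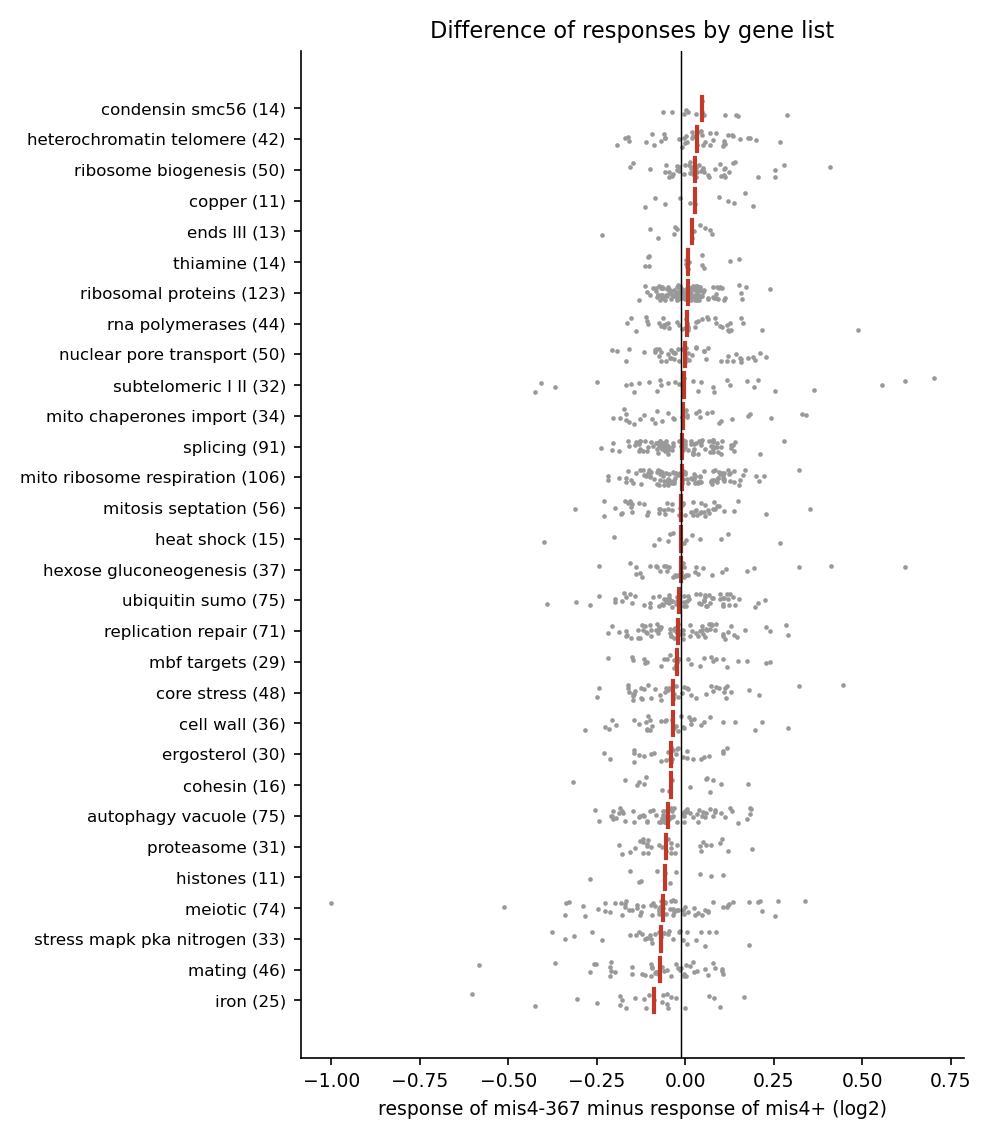
Differences of responses (log2) of the measured genes of each list (grey points, number of genes in parentheses) with the list median (red bar); the vertical line is the median of all 2896 genes. List medians lie between -0.09 for iron genes and 0.05 for condensin and Smc5-Smc6 genes.

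**Figure D5:**
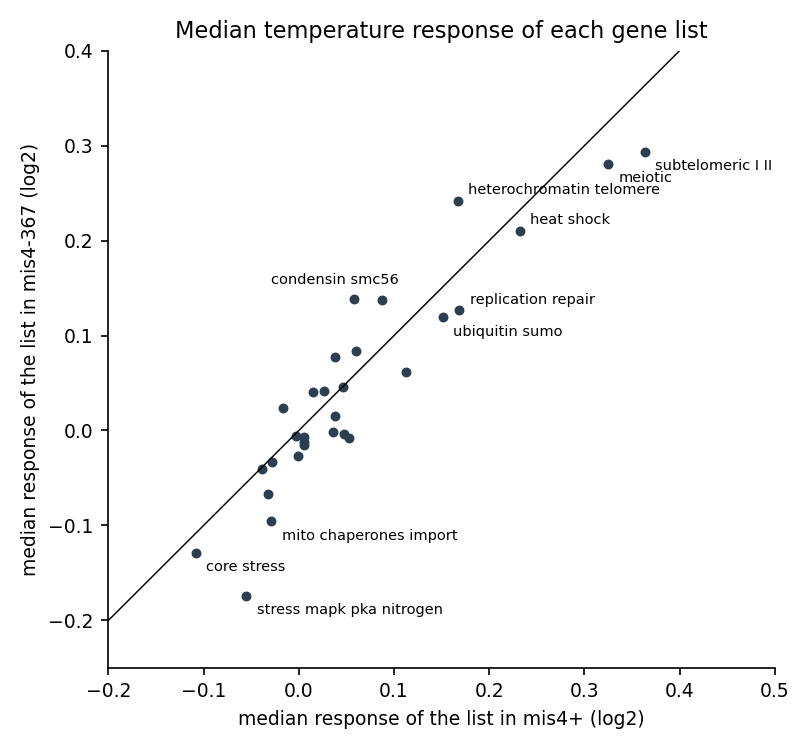
Median response of each gene list to 37 °C in mis4+ (horizontal axis) and in mis4-367 (vertical axis), as log2 differences; the line marks equal medians. The outermost genes of chromosomes I and II are highest in both strains, at 0.36 in mis4+ and 0.29 in mis4-367. Meiotic genes follow at 0.32 and 0.28, with heat shock genes at 0.23 and 0.21 and heterochromatin and telomere genes at 0.17 and 0.24. Most lists lie near the line, and nutrient and stress signalling genes, at -0.06 and -0.17, lie farther below it.

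By position, 4.78% of genes on chromosome I, 5.81% on chromosome II and 3.02% on chromosome III had an unadjusted p under 0.05. On chromosomes I and II, 32 of the 160 outermost protein-coding genes were measured, with 40 taken from either end in the order of the reference. Of these, 6 (18.8%, against 4.87% of all genes) had such a p, namely mel1, aes1, mug14 and pfl8 (0.21 ± 0.08) above zero and tlh2 and isp5 below. The count was 4 after quantile normalization and 5 without replicate 3 of mis4+ at 37 °C. It was 7 without both arrays numbered 3 of mis4+ and 11 with array weights, where 16.6% of all genes had such a p. The size of the difference was over 0.3 in 7 of the 32 genes (21.9%) and in 56 of the 2864 other genes (1.96%), with median standard errors of 0.11 and 0.09. The cut of 0.3 was not planned, and the 7 include 2 genes of wide spread, str3 (-0.43 ± 0.33) and say1 (0.36 ± 0.24). An effect of position was not tested. The median was -0.0049 with 15 of 32 above zero, and in 21 of 32 genes the interval was inside 1.5-fold. The gene tlh2, for a helicase encoded next to the telomere, read 4.98, 4.96 and 5.08 in mis4+ at 25 °C and 5.46, 5.42 and 5.22 at 37 °C, and in mis4-367 5.29, 5.16 and 5.12 at 25 °C and 5.25, 5.07 and 5.10 at 37 °C. The mis4+ arrays at 37 °C were above those at 25 °C, and the mis4-367 arrays overlapped. It rose by 0.36 in mis4+, gave -0.05 in mis4-367 and had a difference of -0.41 ± 0.10, read by a probe set that is shared between sequences, so near-identical copies may contribute. Of the 13 measured genes among the 40 nearest the ends of chromosome III, the sterol acyltransferase gene are2 was below the unadjusted p (-0.24 ± 0.11).

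Among the 10 genes with the smallest p, tms1, mug184 and arg7, for an enzyme of arginine synthesis, lay within 10 consecutive protein-coding genes of chromosome II, a stretch noticed after the values were seen. The gene arg7 read 9.0, 9.01 and 9.02 in mis4+ at 25 °C and 8.59, 8.68 and 8.64 at 37 °C, and in mis4-367 8.91, 8.93 and 8.91 at 25 °C and 8.78, 8.79 and 8.72 at 37 °C. At 25 °C the mis4-367 arrays were all below the mis4+ arrays and at 37 °C all above them. It fell by 0.37 in mis4+ and by 0.16 in mis4-367, a difference of 0.22 ± 0.06. The 4 measured genes between them had differences of 0.10 for sbp1, 0.09 for omh4, -0.05 for nrs1 and 0.02 for mug89, so the measured neighbours of the 3 genes did not carry the same values. The tenth of these genes by p, pex14, for a receptor of peroxisomal import (0.33 ± 0.09), and sid1 lie elsewhere.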

How the data were processed

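Total RNA of 12 samples was labelled with biotin and hybridised to GeneChip arrays designed for S. pombe together with another yeast. The authors deposited an intensity for each probe set on each array, made by RMA per the submitters' processing notes. The values range from 3.96 to 12169, a linear scale, while RMA itself gives log2 values; no source used here gives its version or the step back. RMA sets all arrays to 1 distribution over all probes, which include those for the other yeast. A shift of most S. pombe RNAs could therefore be flattened, at least in part. The median intensity of the S. pombe genes still ran from 394.2 to 433.1 over the arrays. All 12 columns were matched to samples by name, with 0 left over.

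Values were put on the log2 scale with no pseudocount and no filter. Of 10928 probe sets, 2914 named 1 S. pombe gene of the reference table (ASM294v3, 5124 protein-coding genes), 20 several genes, 2601 an upper-case name outside it, taken as the other yeast's, 3 an unmatched name and 5177 none, and 213 were controls. The brightest probe set was kept for 14 genes with several, leaving 2896 genes, 2879 of them above the background in at least 1 group; 113 symbols were updated, and 13 genes are read by shared probe sets. Chromosome and gene order come from that table, and no coordinates are given because no source used here names the build of the array design.

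Fits used R 4.3.3 and limma 3.58.1 (lmFit, contrasts.fit, eBayes) with 12 arrays, 4 group means and no block, and Benjamini-Hochberg adjustment over 2896 genes, and were tested on simulated data. Rose, fell and called mean an adjusted p under 0.05. The slope test was run with scipy 1.17.1 and figures with matplotlib 3.10.9. Same-numbered arrays of a strain were checked for shared deviations: correlations ran from -0.088 to 0.09, against -0.087 to 0.164 for different numbers, so numbers were not taken as pairs.

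The genes, the 28 gene lists and the tests were chosen with earlier results of these data known. Of the names listed, 11 were not in the reference. Lists got counts and medians and no test. Named were the 12 largest differences in each direction with an unadjusted p under 0.05, the 10 smallest p, per list up to 4 genes with the smallest p, the 6 largest responses in each direction, and a set of genes of cohesin, the arrest, mating, iron and import. The gene hsp104 of that set is not among the named probe sets. The gene pfl8 and those between tms1 and arg7 were named after their values were seen.

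Alternatives were fits with a block, other scalings, a pseudocount of 16, a background filter, the mean of probe sets, trended and robust variances, array weights and each array left out.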

Additional observations from a re-analysis of the deposited data

Results flagged for a closer look

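The probe sets without a gene name were not part of the gene comparison. Without a name, it is not given which yeast of the array each of them was designed for. Of these 5177, 2231 lay above the background in at least 1 group, and in a limma fit of their own 5 passed an adjusted p under 0.05 for the difference of responses, 4 higher and 1 lower in mis4-367, with 161 at an unadjusted p under 0.05. The smallest adjusted p was 0.0193. This was flagged as a signal in data that the gene comparison did not use, and the fit was chosen after seeing the data. The probe set 1774104_s_at rose by 1.01 in mis4+ and by 1.56 in mis4-367, a difference of 0.55, from mean levels of 11.78 and 10.71 at 25 °C to 12.79 and 12.27 at 37 °C. The probe set 1769316_s_at rose by 0.96 in mis4+ and gave no call in mis4-367, a difference of -0.96. When named and unnamed probe sets were fitted together, over 5127 in all, 1 passed, 1774104_s_at with an adjusted p of 0.0355 in limma, and 0 named genes did, with a smallest adjusted p of 0.0866 and 127 at an unadjusted p under 0.05. Leaving out 1 array at a time, the fit of unnamed probe sets called 0 to 9. With the culture as a replicate block that fit called 3.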

How the results depend on the processing

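Over 24 alternatives, 22 called 0 genes for the difference of responses, with smallest adjusted p-values in limma from 0.0197 to 0.501 over all of them. Array weights called 2 genes, mug184 (0.48, adjusted p = 0.0197) and tlh2 (-0.52, adjusted p = 0.0378), with a weight of 0.092 for replicate 3 of mis4+ at 37 °C. Leaving out 1 array at a time called 0 to 1, the 1 being mel1 (0.72, adjusted p = 0.0281) without replicate 2 of mis4-367 at 25 °C. The unadjusted count of 141 ran from 75 to 335 when 1 array was left out and was 482 with array weights. With the culture as a replicate block 0 genes were called, 132 had an unadjusted p under 0.05 and the smallest adjusted p was 0.285; with the number as a replicate block these were 0, 141 and 0.156. Neither block moved a count of responses called in a strain by over 1.5 times.

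The slope difference of 0.0544 was 0.0324 after quantile normalization of the genes (exact permutation p = 0.2) and ran from 0.0345 to 0.073 with 1 replicate left out. Counts of genes called in each strain and of intervals inside 1.5-fold stayed within 1.5 times under every alternative run. Of the 94 genes named by the rule, 84 kept their sign in all alternatives; mis4, ssl3, psc3, spn6, gut2, urg2, oca2, spk1, hop1 and ppk31 changed sign in at least 1, with no call on either side. The cause of these changes was not tested.

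Classes by gene orientation were not run, since the table used here gives no strand. With 3 arrays per group the median standard error of 0.09 limits what the difference can show, and genes near the background understate their changes.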
